A study of Mus musculus with 2 samples.

Results

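Heat-shock-high beta cells were a set of 433 insulin-producing islet cells from mice on regular chow, out of 4574 beta cells in the chow library and 11048 barcodes in both libraries. They were selected on the transcripts they were named for. A member had at least 500 detected genes, at most 10% of its unique molecular identifiers (UMIs, each standing for 1 captured RNA molecule) from mitochondrial genes, at least 20% of its UMIs from the insulin genes Ins1 and Ins2, and at least 5 UMIs of Hspa1a and Hspa1b together. The cells set against them came from the same library, passed the same limits and held 0 UMIs of Hspa1a and Hspa1b. Members and zero cells were matched 1 to 1 on total UMIs, within 10%, which gave 429 pairs. Levels of Hspa1a and Hspa1b are therefore a description of the selection. Dnajb1, the third gene used to characterise the set, took no part in the selection.

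Islet cells of wild-type C57BL/6J mice, an inbred laboratory strain, were captured in droplets and the 3′ ends of their transcripts were sequenced cell by cell. The mice had received a high-fat diet with 60% fat (HFD, 5 mice) or regular chow (4 mice) for 6 weeks, starting at weaning. Islets of both groups were released with collagenase, hand-picked, kept in culture overnight and then dispersed with trypsin at 37°C, so every cell had passed through culture and a warm enzyme step before capture. Animals of a diet were pooled into 1 library and no cell can be assigned to a mouse, so no test of diet or of cell group was possible: levels are given with exact 95% intervals that cover counting error only, and differences describe these libraries. The HFD library held 4539 barcodes with a median of 13911 UMIs, and the chow library 6509 barcodes with a median of 12414. The libraries shared 45 barcode sequences, 2 of them among the 433 members.

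The heat shock response is the induction of chaperones when proteins misfold. Heat shock factor 1 (HSF1), held inactive by chaperones in unstressed cells, forms trimers, binds repeats of short inverted units called heat shock elements, and switches on genes such as Hspa1a, Hspa1b, Dnajb1 and Hspb1. Beta cells fold large amounts of proinsulin and carry a marked load of secretory protein, and enzymatic dispersal of tissue is known to induce both heat shock genes and immediate early genes such as Fos and Jun.

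Hspa1a and Hspa1b lie side by side and encode nearly the same inducible HSP70 chaperone. The 250 bases before each transcription start are shown for this pair, for Hspb1, which encodes a small heat shock protein, and for Hspe1, which encodes the mitochondrial cochaperonin HSP10. They are given because Hspb1 was among the higher genes of the members and Hspe1 was not, although both windows hold the element. Sequences and coordinates are from RefSeq on GRCm38.p6, written 5′ to 3′ on the gene's strand. Capitals mark every match to a heat shock element of 2 inverted units, spelled GAANNTTC or TTCNNGAA and searched on both strands.
Hspa1a promoter, chr17:34972157-34972406, minus strand: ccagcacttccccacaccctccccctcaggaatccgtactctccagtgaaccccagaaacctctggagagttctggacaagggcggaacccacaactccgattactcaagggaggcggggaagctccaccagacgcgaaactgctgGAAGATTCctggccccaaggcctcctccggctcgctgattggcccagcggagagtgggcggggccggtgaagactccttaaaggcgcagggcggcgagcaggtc
Hspa1b promoter, chr17:34959239-34959488, minus strand: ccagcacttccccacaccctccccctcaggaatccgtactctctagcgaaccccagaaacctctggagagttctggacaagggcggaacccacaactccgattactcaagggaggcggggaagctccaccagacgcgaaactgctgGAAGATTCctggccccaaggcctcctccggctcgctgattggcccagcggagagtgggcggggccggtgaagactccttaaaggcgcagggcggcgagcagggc
Hspb1 promoter, chr5:135887669-135887918, plus strand: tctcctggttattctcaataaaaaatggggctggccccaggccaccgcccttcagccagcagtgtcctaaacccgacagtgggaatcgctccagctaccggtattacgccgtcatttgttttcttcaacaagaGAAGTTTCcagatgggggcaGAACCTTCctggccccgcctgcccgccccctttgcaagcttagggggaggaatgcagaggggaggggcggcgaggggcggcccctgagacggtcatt
Hspe1 promoter, chr1:55087898-55088147, plus strand: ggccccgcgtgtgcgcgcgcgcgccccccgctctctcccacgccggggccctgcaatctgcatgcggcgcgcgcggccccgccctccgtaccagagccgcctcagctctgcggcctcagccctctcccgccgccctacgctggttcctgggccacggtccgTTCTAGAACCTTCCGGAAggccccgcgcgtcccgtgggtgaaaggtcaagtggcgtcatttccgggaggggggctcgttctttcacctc

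The Hspa1a and Hspa1b windows were identical at 247 of 250 positions. They differed by C44T, T47C and T249G, with the base of Hspa1a first and positions counted from 1 at the 5′ end of the window, and both held a single 2-unit element that started 104 bases before the transcription start (position -104). Hspb1 held 2 elements, at -117 and -97. Hspe1 held 3 overlapping elements that started at -89, -84 and -79, which also gave 3-unit matches. Of 30 heat shock list genes with a RefSeq window, 12 (40%) held a 2-unit match, against 2485 of 17999 genes of the count table (13.8%). Both the 30 and the 12 include Hspa1a and Hspa1b, and the list was made up of heat shock genes and HSF1 targets. The 3-unit form was found in 3 of the 30, Dnajb6, Hspd1 and Hspe1, against 0.483% of the count table's genes. No 2-unit match was found in the windows of Dnajb1, Fos, Fosb or Ubb, and 1 was found in the window of Jun and in 1 of 3 windows of Dnaja1. A match is a description of letters and not of binding.

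The gate took 433 of 4574 chow beta cells (9.47%, exact interval 8.63 to 10.4%). Another 1094 cells (23.9%) held 1 to 4 UMIs of the pair and 3047 cells (66.6%) held none. Members held a median of 7 UMIs, with a range of 5 to 27, and together 3648 of the 5687 Hspa1a and Hspa1b UMIs of chow beta cells (64.1%). Counts fell off without a gap at the threshold: 184, 115, 93 and 78 cells held 3, 4, 5 and 6 UMIs. The variance of the count over chow beta cells was 6.14 times its mean.

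**Figure D1:**
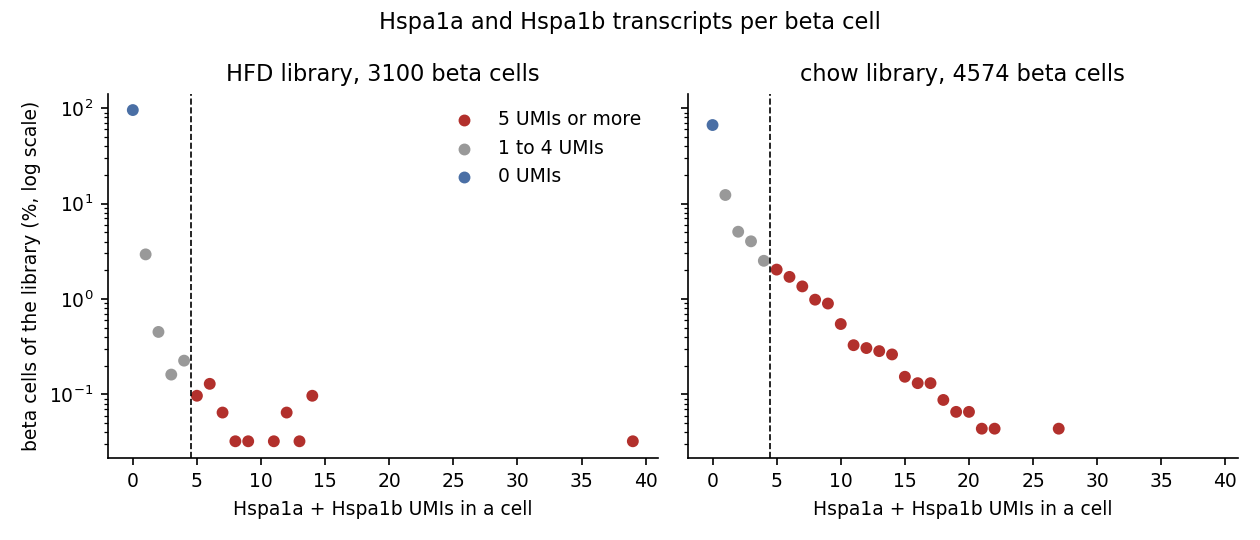
Share of each library's beta cells (y axis, percent, log scale) by the number of Hspa1a and Hspa1b UMIs in the cell (x axis), HFD library left and chow library right. The dashed line marks the gate of 5 UMIs, which 19 of 3100 HFD cells and 433 of 4574 chow cells passed; counts with no cell are not drawn.

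Depth entered the gate, since it was set in UMIs and not per cell total. Members had a median of 21585 UMIs, against 13444 in all zero cells. When chow beta cells were split into 4 equal groups by depth, members made up 2.19%, 3.15%, 9.10% and 23.4% from the shallowest to the deepest. Per UMI the difference between these groups was smaller: Hspa1a and Hspa1b together stood at 55.6, 44.1, 69.1 and 111 CPM (counts per 1000000 UMIs), and a gate of 4 UMIs per 10000 took 3.93%, 2.62%, 4.72% and 5.86%. In the matched pairs the medians were 21548 UMIs and 2907 genes in members, against 21541 UMIs and 2877 genes in zero cells.

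Hspa1a gave most of the signal. Members held 2949 UMIs assigned to Hspa1a and 699 assigned to Hspa1b (80.8% Hspa1a). All 433 had an Hspa1a UMI and 280 also had one of Hspa1b. In cells with 1 to 4 UMIs the Hspa1a share was 73.6%. The copies are so alike that reads may have been split or dropped between them, and their ratio is uncertain for that reason.

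Levels just inside the gate were somewhat higher than those just outside it, and these values are given without intervals. Dnajb1, which encodes the HSP40 cochaperone that hands substrates to HSP70, stood at 83.7, 75.3, 94.9 and 114 CPM in cells with 3, 4, 5 and 6 Hspa1a and Hspa1b UMIs. Fos, a subunit of the AP-1 transcription factor, stood at 333, 369, 461 and 462 CPM in the same cells, with the largest step between 4 and 5 UMIs. The set is the upper range of a count with no gap at the gate.

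All 10 beta cell markers had UMIs in the members, Mafa with only 2. Insulin UMIs made up a median of 55.2% in members and 54.3% in matched zero cells, which the gate limited only from below. Ucn3, a peptide of mature beta cells, stood at 222 CPM in members and 234 CPM in zero cells, and the transcription factor genes Nkx6-1 and Pdx1 at 107 and 48.0 CPM in members and 108 and 47.0 CPM in zero cells. Mafa, a maturity factor gene, had 2 UMIs in members and 0 in zero cells. Slc2a2, the glucose transporter GLUT2, stood at 59.8 CPM in members and 74.2 CPM in zero cells. Iapp, the islet amyloid peptide, stood at 73723 CPM in members and 80573 CPM in zero cells.

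Hormone transcripts of other islet cells were present in both groups, whereas endothelial, macrophage, acinar, mesenchymal and Schwann cell markers were low. The 5 endothelial markers summed to 10.3 CPM in members, where no cell had over 2 UMIs, and to 12.7 CPM in zero cells, where 1 cell had 31. The 5 macrophage markers summed to 56.7 CPM in members and 27.0 CPM in zero cells. In members 1 cell had 300 of the 539 macrophage marker UMIs and the 5 highest cells had 59.0%, and 158 members against 180 zero cells had any. Acinar markers stood at 10.4 CPM in members and 9.79 CPM in zero cells. Mesenchymal markers stood at 0.737 CPM in members, with Col3a1 at 0, and at 0.532 CPM in zero cells, with Col1a1 and Pdgfrb at 0. The Schwann cell gene Sox10 was at 0 in both. Delta cell markers stood at 908 CPM in members and 819 CPM in zero cells, alpha cell markers at 2247 and 2799 CPM, and PP cell markers at 4573 and 7798 CPM. Ductal markers stood at 90.4 CPM in members and 90.7 CPM in zero cells. The part of these cells in the gene results was not tested. Each cell carried some Gcg and Ppy, with medians of 16 Gcg and 23 Ppy UMIs in members.

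The mitochondrial share was lower in members, with a median of 2.33% against 2.73% in matched zero cells. The members' 25% to 75% range was 1.81 to 3.21%, and that of zero cells 1.91 to 3.77%. The part of this difference in the gene results was not tested.

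The members differed from matched zero cells in a narrow group of chaperone genes and a broader group of immediate early genes. Dnajb1 stood about 4 times as high, at 116 CPM (1102 UMIs) in members and 29.3 CPM (275 UMIs) in zero cells. Fosb, Jun, Fos, Dusp1 and Ier2 were higher by 1.07 to 1.78 on the log2 scale. The constitutive chaperone gene Hspa8 and its cochaperone gene Dnaja1 were also higher, whereas most other chaperone genes differed by less than 1.5-fold. Ratios are log2 values of members over zero cells with 0.5 counts added, relative to the median of 9188 genes with a summed count of at least 50. Over these genes, 218 (2.37%) were at least 1.5-fold higher and 185 (2.01%) at least 1.5-fold lower. Selection was by Hspa1a and Hspa1b, so other genes are independent of the rule as measurements but not as samples, and no test is given.

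Chaperones that act with HSP70 in the cytosol led the heat shock list. Dnajb1 was detected in 310 of 429 members (72.3%) and in 144 of 429 zero cells (33.6%), with a relative log2 ratio of 1.999 (1.81 to 2.20). Members held a median of 2 and at most 18 Dnajb1 UMIs, and zero cells a median of 0 and at most 14, so the groups overlapped. Hspa8, the constitutive HSC70, stood at 524 CPM in members and 296 CPM in zero cells (ratio 0.84, 0.77 to 0.90), and nearly every cell of both groups had it. Dnaja1, another J-domain cochaperone, stood at 117 CPM in members and 67.9 CPM in zero cells (0.80, 0.66 to 0.95). Hspb1 stood at 8.21 CPM in members and 2.13 CPM in zero cells (1.94, 1.24 to 2.75). It rested on few cells, with UMIs in 37 members and 14 zero cells, and the 5 highest cells held 38.5% and 55.0% of its counts.

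The remaining chaperones stood at ratios under 1.5-fold. The genes of HSP90, which keeps HSF1 and many other client proteins in check, were modestly higher: Hsp90ab1 stood at 601 CPM in members and 451 CPM in zero cells (0.43, 0.37 to 0.49), and Hsp90aa1, its stress-inducible copy, at 301 and 237 CPM (0.36, 0.28 to 0.44). Hsph1, an HSP110 that recharges HSP70, stood at 30.9 CPM in members and 23.1 CPM in zero cells (0.44, 0.18 to 0.70). The HSP90 cochaperone genes Ahsa1 and Cacybp had ratios of 0.38 and 0.49, while Stip1, which links HSP70 to HSP90, had 0.01 (-0.29 to 0.32) and stood between -0.33 and -0.43 with stricter gates or thinned cells. Genes of the TRiC chaperonin, Tcp1 and Cct2 to Cct5, had ratios of 0.29 to 0.47, but Cct2 was at -0.35 with cells thinned to 3800 UMIs and Tcp1 at -0.14 with a gate of at least 10 UMIs. Ubb, a polyubiquitin gene, had a ratio of 0.51 (0.47 to 0.55).

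Several other heat shock genes lay near the median gene. Bag3, a cochaperone that couples HSP70 to autophagy, stood at 9.79 CPM in both groups (ratio 0.01, -0.42 to 0.45), and its ratio was -0.42 with a gate of at least 10 UMIs and -0.76 with at least 4 UMIs per 10000. Hspe1 stood at 224 CPM in members and 223 CPM in zero cells (0.02, -0.07 to 0.11), although its window holds the longest run of heat shock units among those printed. Its partner Hspd1, the mitochondrial HSP60, had a ratio of 0.24 (0.06 to 0.43). Hsf1 itself stood at 7.47 CPM in members and 8.30 CPM in zero cells (-0.14, -0.62 to 0.35). Cryab, which encodes a small heat shock protein, had 10 UMIs in each group and was under the count limit.

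Of the 36 members of the heat shock list other than Hspa1a and Hspa1b, 35 had enough counts. Of these, 4 (Dnajb1, Hspb1, Hspa8 and Dnaja1) were at least 1.5-fold higher, beside 2.37% of all genes, and none lower. Of the 35, 28 lay above the median of all genes, and 19 had an interval above 0, which 903 of all 9188 genes had (9.83%). Intervals are narrower for genes with more counts, and other lists exceeded this share too. Among them were cytoskeletal genes (11 of 16), secretory granule genes (10 of 22) and ribosomal protein genes (8 of 34, with 11 below 0). The heat shock list's median ratio was 0.26, beside 0 for all genes by construction, 0.30 for the proteasome and 0.22 for cytoskeletal genes. The lowest member was Chordc1, an HSP90 cochaperone gene, at -0.34 (-0.72 to 0.02).

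**Figure D2:**
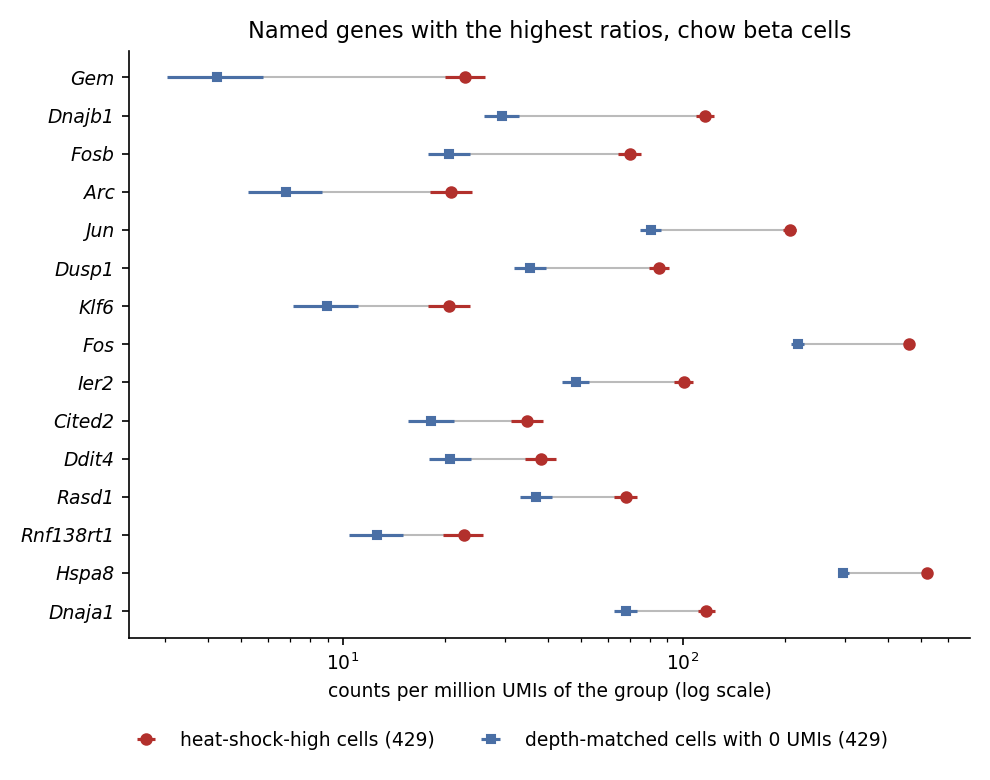
Levels of the 15 named genes with the highest ratios (y axis) in counts per 1000000 UMIs (x axis, log scale) in 429 heat-shock-high chow beta cells (red circles) and 429 depth-matched chow beta cells with 0 Hspa1a and Hspa1b UMIs (blue squares), with exact Poisson 95% intervals. The intervals of members and zero cells do not meet for any of these genes, which were picked for their ratios; Gem shows the widest gap, at 22.8 and 4.26 CPM.

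Immediate early genes formed the larger group. These genes are transcribed within minutes of a stimulus, without new protein synthesis, and many encode AP-1 subunits or feedback regulators. Fos stood at 463 CPM in members and 218 CPM in zero cells (ratio 1.10, 1.03 to 1.18). Members held a median of 9 and at most 29 Fos UMIs, and zero cells a median of 4 and at most 33, so the ranges overlapped. Jun, the partner of Fos in AP-1, stood at 206 CPM in members and 80.5 CPM in zero cells (1.37, 1.25 to 1.497), and 90.7% of members and 58.3% of zero cells had it. Fosb stood at 69.8 CPM in members and 20.5 CPM in zero cells (1.78, 1.55 to 2.02), and its ratio was 2.74 with a gate of at least 4 UMIs per 10000. Feedback regulators were also higher: Dusp1, a phosphatase of stress-activated kinases, stood at 85.1 CPM in members and 35.5 CPM in zero cells (1.27, 1.09 to 1.46), and Ier2 at 101 and 48.3 CPM (1.07, 0.91 to 1.24). The transcription factor genes Klf6, Klf4 and Atf3 had ratios of 1.21, 1.28 and 1.18.

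The AP-1 subunits were unequal. Jund stood at 267 CPM in members and 171 CPM in zero cells (ratio 0.66), and Junb at 197 and 164 CPM (0.27, 0.18 to 0.37). Nr4a1, an orphan nuclear receptor gene, and Egr1, a zinc finger factor gene, had ratios of 0.77 and 0.69. Of the 24 listed immediate early genes, 21 had enough counts. Of these, 12 were at least 1.5-fold higher, beside 2.37% of all genes, and none was lower. An interval above 0 was found for 17, beside 9.83% of all genes. The list's median was 0.66, the highest of the 17 lists. The lowest member was Maff, at -0.29 (-0.84 to 0.25).

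Other genes among the 15 highest ratios had varied roles. Gem, which encodes a small GTPase that restrains voltage-gated calcium channels, had the highest ratio among the named genes other than cell type markers, 2.42 (1.95 to 2.96). It stood at 22.8 CPM in members and 4.26 CPM in zero cells, with UMIs in 99 members and 32 zero cells, and the 5 highest cells held 18.4% of its counts in members. Arc, an activity-regulated gene of neurons, stood at 20.8 CPM in members and 6.81 CPM in zero cells (1.62, 1.21 to 2.06). Rasd1, a Ras-like gene induced by glucocorticoids, stood at 67.8 CPM in members and 37.0 CPM in zero cells (0.89, 0.70 to 1.08). Ddit4, an inhibitor of the growth kinase complex mTORC1, stood at 38.2 and 20.6 CPM (0.90, 0.65 to 1.16), and Cited2, a transcriptional coregulator gene, at 34.8 and 18.2 CPM (0.95, 0.68 to 1.23). Rnf138rt1 had a ratio of 0.86 (0.53 to 1.20).

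The genes with the lowest ratios differed by less. Ret, the receptor tyrosine kinase for GDNF family ligands, stood at 12.8 CPM in members and 23.7 CPM in zero cells (ratio -0.87, -1.20 to -0.55), with UMIs in 101 members and 167 zero cells. Gabbr2, a subunit of the GABA-B receptor, stood at 16.0 CPM in members and 25.4 CPM in zero cells (-0.65, -0.96 to -0.35). Gad1, which makes GABA from glutamate, had a ratio of -0.48 (-0.80 to -0.16). Thinned to 3800 UMIs, Gabbr2 stood at -1.42 and Gad1 at -1.46. Others among the 15 lowest were Arid2 at -0.58, the elongation cyclin gene Ccnt1 at -0.51, the RNA polymerase II subunit gene Polr2l at -0.49 (-0.78 to -0.19), Smarca2 at -0.45 and the splicing factor gene Prpf8 at -0.44 (-0.71 to -0.16). Only Ret and Gabbr2 of the 15 were past 1.5-fold.

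Other stress pathways showed few members past 1.5-fold, where 2.37% of all genes were higher and 2.01% lower. The proteasome, which degrades ubiquitin-tagged proteins, had a median ratio of 0.30: all 28 listed subunits lay above the median of all genes and 24 had an interval above 0, beside 9.83% of all genes, but only Psmc2 passed 1.5-fold, at 44.7 CPM in members and 28.6 CPM in zero cells (0.66, 0.43 to 0.88). The unfolded protein response of the endoplasmic reticulum had a median of 0.08 with none of 27 genes past 1.5-fold. It had 12 genes with an interval above 0 and 4 with one below 0, beside 903 and 549 of all 9188 genes. Its chaperone gene Hspa5 (BiP) stood at 281 CPM in members and 241 CPM in zero cells (0.24, 0.16 to 0.32), and Xbp1, its transcription factor, at 97.6 and 94.8 CPM (0.06, -0.08 to 0.19). The integrated stress response had a median of 0.05 with 2 of 17 genes past 1.5-fold, Ddit4 and Phgdh (0.71, 0.42 to 1.01), a share above that of all genes. Atf4, the effector of this response, stood at 134 CPM in members and 135 CPM in zero cells (0.01, -0.11 to 0.12). Ddit3 (CHOP) had a ratio of -0.09 (-0.34 to 0.16). The oxidative stress list had a median of 0.07 with none of 21 past 1.5-fold, Txnip highest at 0.54 (0.38 to 0.71) and the metallothionein gene Mt1 at -0.31 (-0.34 to -0.28). Intervals lay above 0 for 5 and below 0 for 3 of the 17 integrated stress response genes, and for 7 and 4 of the 21 oxidative stress genes.

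Most other lists, among them those of beta cell function, lay near the median gene. The mitochondrially encoded list was lower and the cytoskeletal list higher. Identity and maturity genes had a median of 0.02 and none of 22 was past 1.5-fold. Secretory granule genes had a median of 0.10, and the highest was the granin gene Chga, at 3293 CPM in members and 2349 CPM in zero cells (0.50, 0.48 to 0.53). Cd63, a tetraspanin of endosomes and secretory vesicles, had a ratio of 0.29 (0.25 to 0.33). Nuclear genes of oxidative phosphorylation had a median of -0.03 with all 42 within 1.5-fold, and ribosomal protein genes of -0.00 with all 34 within it. The 12 mitochondrially encoded genes had a median of -0.17, with none above the median of all genes and 10 with an interval below 0. Glycolysis stood at 0.13, apoptosis and p53 genes at 0.06, interferon and antigen presentation genes at 0.09, with Irf7 (-0.71) lower, and genes that limit HSF1 or sense misfolding at 0.05. Cytoskeletal genes had a median of 0.22, with the tubulin gene Tubb3 (0.62, 0.36 to 0.88) and the keratin gene Krt18 (0.59, 0.46 to 0.71) of 16 past 1.5-fold higher, beside 2.37% of all genes.

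Among 18 genes used in the literature to describe beta cell heterogeneity the median was -0.01, and Ppy (-1.03) and Npy (-2.02) were past 1.5-fold lower, beside 2.01% of all genes. Ppy had UMIs in every cell of both groups, with medians of 23 in members and 25 in zero cells, but few cells held much of it. The 5 highest cells held 33.7% of the Ppy counts in members and 63.0% in zero cells. Cells with at least 1% of UMIs from Ppy numbered 13 of 429 members and 15 of 429 zero cells, and without them Ppy stood at 1184 and 1225 CPM. Fam151a was the highest of this list, at 88.7 CPM in members and 60.3 CPM in zero cells (0.57, 0.42 to 0.73).

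**Figure D3:**
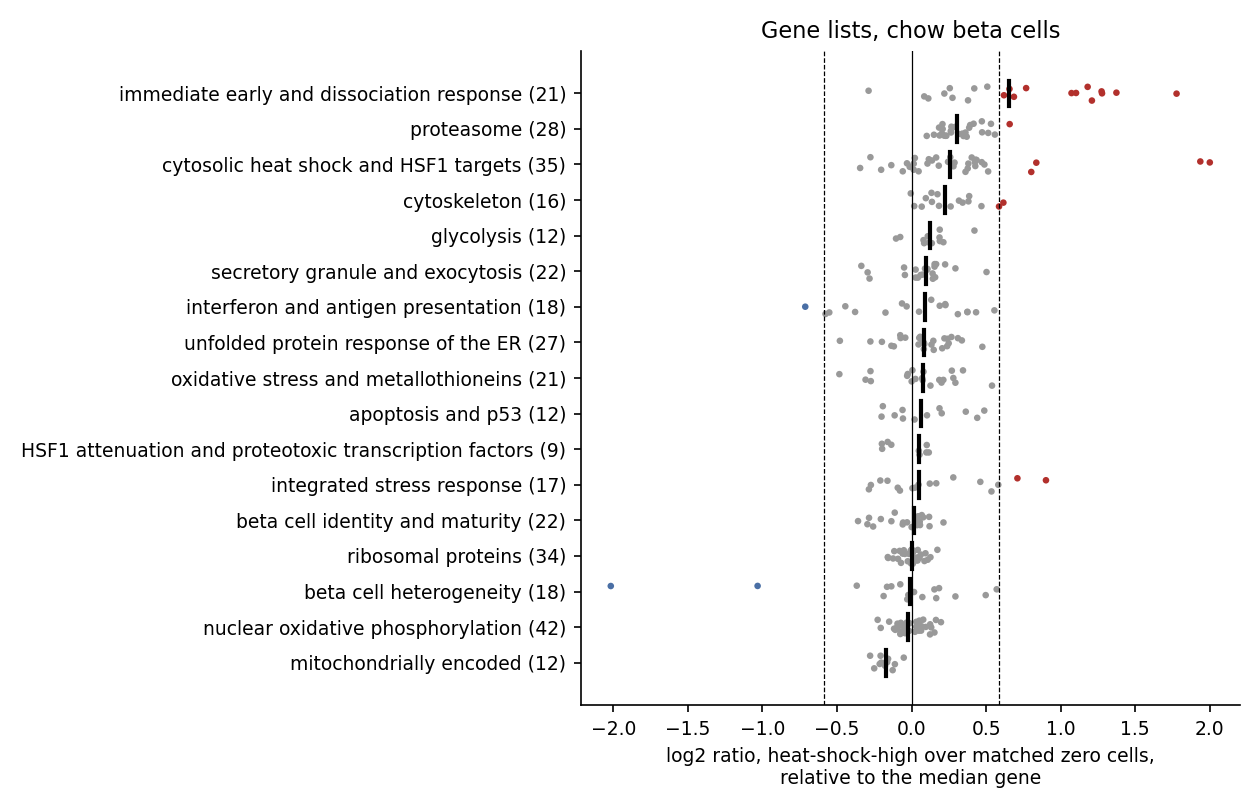
Log2 ratio of heat-shock-high over matched zero chow beta cells, relative to the median gene (x axis), for every member with enough counts of 17 gene lists (y axis, number of genes in brackets; Hspa1a and Hspa1b left out). Points are genes, black bars list medians and dashed lines mark 1.5-fold; the immediate early list has the highest median (0.66) and most of the points beyond the right line, while the proteasome points all lie right of 0 and close together.

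Levels already differed between groups of cells below the gate. In chow beta cells with 0, 1 to 2, 3 to 4, 5 to 9, 10 to 19 and 20 or more UMIs (3047, 795, 299, 319, 105 and 9 cells), Dnajb1 stood at 23.8, 50.9, 80.3, 113, 119.7 and 156 CPM. Hspa8 stood at 275, 343, 425, 501, 556 and 698 CPM in the same groups, and Jun at 72.4, 115, 154, 187, 240 and 332 CPM. Fos stood at 231, 291, 347, 448, 474 and 614 CPM, and all these levels lay in the order of the groups. Inside the gate the Dnajb1 intervals overlapped, with 105 to 121, 107 to 134 and 110 to 215 CPM in the 3 groups. Over the 433 members, levels per 10000 UMIs were correlated with those of Hspa1a and Hspa1b at Pearson's r = 0.03 for Dnajb1 (Spearman's rho = -0.01), 0.03 for Hspa8 (rho = 0.01), 0.28 for Fos (rho = 0.23) and 0.26 for Jun (rho = 0.21). These values describe cells of 1 library that share their depth as denominator, and none is strong. The gate of 5 UMIs also cut off the lower range of Hspa1a and Hspa1b and tied their level per 10000 UMIs to depth. Values near 0 inside the gate therefore cannot show whether the genes go together over all beta cells. Hspe1 stayed between 209 and 252 CPM. The groups were not matched on depth: their median UMIs were 13444, 16017, 19890, 20699, 22810 and 26709.

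Most of the difference in Ubb and Cd63 lay below the gate. Ubb stood at 744, 999.6, 1194, 1240.0, 1309.5 and 1456 CPM from the lowest to the highest group, and Cd63 at 766, 1021, 1087, 1149, 1211 and 1031 CPM. Dusp1, Ddit4 and Rasd1 did not differ beyond their counting intervals between the 3 groups inside the gate. The 9 cells with 20 or more UMIs had the widest intervals, for Dnajb1 110 to 215 CPM.

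**Figure D4:**
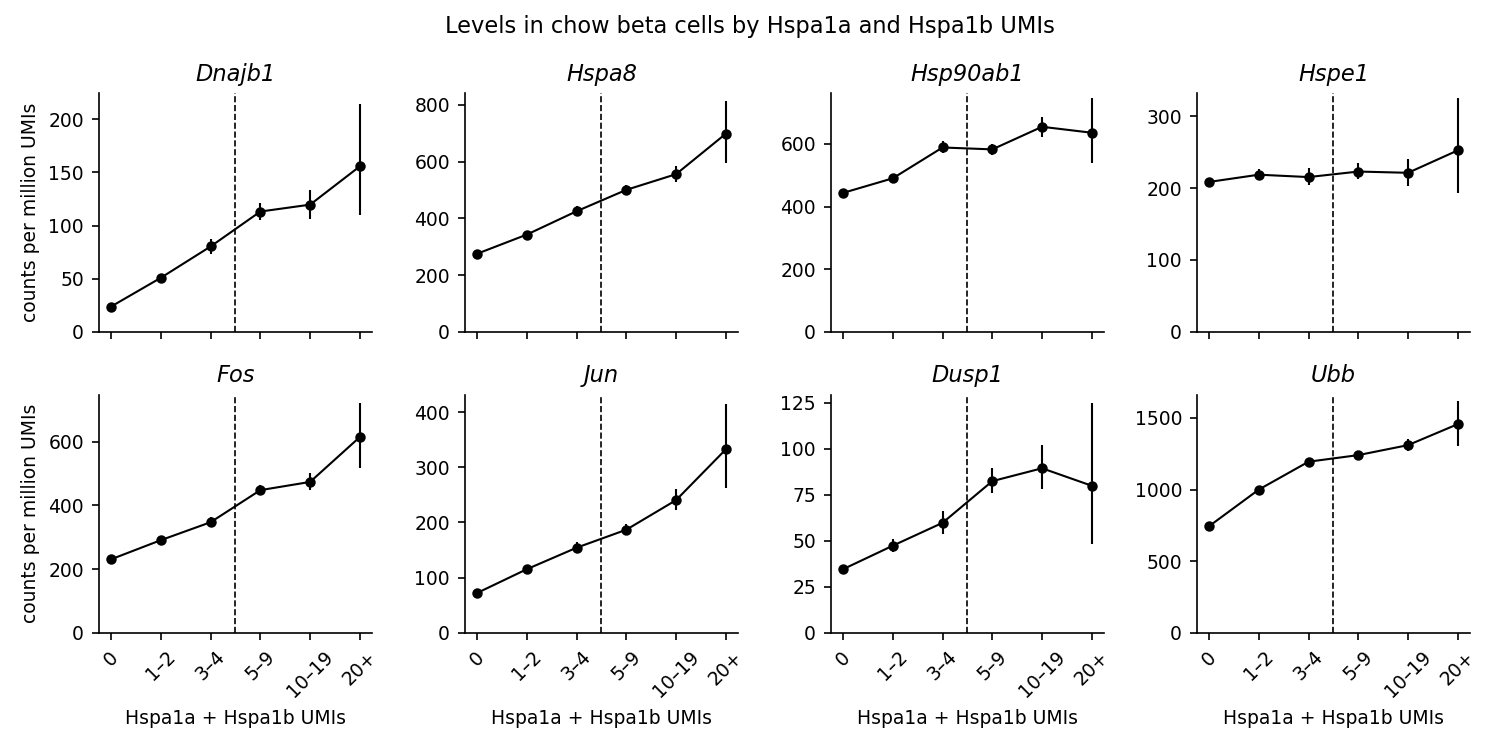
Levels of 8 genes in chow beta cells (y axes, counts per 1000000 UMIs, starting at 0) by the number of Hspa1a and Hspa1b UMIs in the cell (x axes), with exact Poisson 95% intervals; the dashed line marks the gate of 5 UMIs. Left of the line Dnajb1, Hspa8, Fos, Jun and Ubb are higher from group to group; right of it the Dnajb1 intervals overlap; Hspe1 lies between 209 and 252. Depth differs between the groups.

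The same 429 pairs were divided into deeper and shallower ones, a split chosen after seeing the data. Both parts are made of the cells that gave the ratios above, so they describe the spread with depth and add no separate support. In the deeper part of the pairs (214 pairs, median 26545 UMIs) the ratio of Dnajb1 was 2.11 and in the shallower part (215 pairs, median 17579 UMIs) it was 1.81. Fos had 0.97 and 1.27, Jun 1.29 and 1.46, Fosb 1.48 and 2.29, Hspa8 0.80 and 0.85, and Ubb 0.37 and 0.72 in the deeper and shallower pairs. Gem had 3.14 in the deeper pairs and 1.83 in the shallower.

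Most members held both heat shock and immediate early transcripts, and each kind was common in members on its own. At least 5 UMIs of Fos, Fosb and Jun together were present in 402 of 429 members (93.7%) and 239 of 429 zero cells (55.7%). A Dnajb1 UMI was present in 310 members (72.3%) and 144 zero cells (33.6%). Cells with both features numbered 294 (68.5%) among members and 105 (24.5%) among zero cells. With each feature this common in members, a large overlap would arise without any link. Whether the features go together from cell to cell was not tested. Neither feature was found in 11 members and 151 zero cells. Members held a median of 15 of these AP-1 UMIs, with a range of 0 to 60, and zero cells a median of 5, with a range of 0 to 47, so the ranges overlapped almost fully.

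By the same gate the HFD library held 19 heat-shock-high cells among 3100 beta cells (0.613%, exact interval 0.369 to 0.955%), against 433 of 4574 in the chow library (9.47%). Cells with 1 to 4 UMIs made up 3.77% in the HFD library and 23.9% in the chow library. The HFD beta cells were the deeper ones, with a median of 16946.5 UMIs against 14809.5 in the chow library. With 1 library per diet, the diet cannot be told apart from the preparation of each library. The 19 HFD cells held a median of 8 Hspa1a and Hspa1b UMIs, a range of 5 to 39, and a median depth of 25307 UMIs. Of them 52.6% had a Dnajb1 UMI, and their insulin share had a median of 49.3%. The HFD cell with 39 UMIs had 41792 UMIs in all and a Ppy level of 34624 CPM.

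In the library that the selection did not use, the pattern was seen in part, at a lower gate of 1 UMI. HFD beta cells with at least 1 Hspa1a or Hspa1b UMI (136 cells) were set against 136 HFD beta cells with none, matched on depth (median 18416.5 and 18417.5 UMIs). Of 6123 genes, 266 (4.34%) were at least 1.5-fold higher and 138 (2.25%) at least 1.5-fold lower. Dnajb1 stood at 35.2 CPM in positive cells and 13.0 CPM in zero cells (ratio relative to the median gene, itself 0.11 higher in positive cells, of 1.31, 0.74 to 1.93), with UMIs in 46 and 28 cells. The 5 highest positive cells held 41.3% of its counts, and the 105 positive cells with 1 to 2 Hspa1a and Hspa1b UMIs stood at only 21.8 CPM (15.6 to 29.6), those with 3 to 4 (12 cells) at 108 CPM and those with 5 to 9 (11 cells) at 22.6 CPM. Jun stood at 221 CPM in positive cells and 92.8 CPM in zero cells (1.14, 0.92 to 1.36), but Fos only at 542 and 409 CPM (0.30, 0.18 to 0.41). Hspa8 and Ubb had ratios of 0.29 (0.13 to 0.45) and 0.48 (0.36 to 0.59).

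The heat shock list had a median of 0.17 in the HFD contrast, with Dnajb1 and Hspb1 at least 1.5-fold higher and Cryab lower among 32 members. These counts were near the shares of all genes, 4.34% higher and 2.25% lower. Intervals lay above 0 for 7 of the 32 and below 0 for 1, beside 335 and 231 of all 6123 genes. The immediate early list had a median of 0.40, with 9 of 19 members at least 1.5-fold higher, beside 4.34% of all genes, and none lower. Among the 9 were Atf3 (3.26), Ier3 (2.22), Zfp36 (1.14) and Klf6 (1.12). Dusp1 and Nr4a1, both higher in the chow members, were at 0.04 each. Identity and maturity genes had a median of -0.16 in the HFD contrast, against 0.02 in the chow members. The chow members had passed a gate of 5 UMIs, so these comparisons mix gate and library. With at least 1 UMI (1464 chow pairs), the chow medians were -0.03 for identity and maturity, 0.19 for heat shock and 0.58 for immediate early genes. Of 22 identity and maturity genes in the HFD contrast, 10 had an interval below 0 and 0 had one above it, beside 231 and 335 of all 6123 genes. Single cells weighed heavily: 5 cells held 66.7% of the Hspb1 counts of the positive cells, and all Cryab UMIs lay in 3 positive and 5 zero cells. Endothelial markers stood at 137 CPM in the positive HFD cells, where 1 cell had 224 of 358 UMIs, and at 10.7 CPM in zero cells, where Cdh5 was at 0. Macrophage markers stood at 201 CPM in positive cells, where 1 cell had 456 of 525 UMIs, and at 28.0 CPM in zero cells. Endocrine and ductal markers were higher in positive cells too. Delta cell markers stood at 2473 CPM in positive cells and 741 CPM in zero cells, PP cell markers at 9945 and 4265 CPM, and ductal markers at 109.7 and 11.9 CPM. The 5 highest positive cells held 78.3% of the delta, 54.0% of the PP and 94.8% of the ductal marker UMIs. The part of such cells in these ratios was not tested.

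Beta cells without any Hspa1a or Hspa1b UMI also differed between the libraries. In 2628 pairs matched on depth (median 15666.5 UMIs in HFD cells and 14479 in chow cells), 481 of 11766 genes (4.09%) were at least 1.5-fold higher in the HFD library and 898 (7.63%) at least 1.5-fold lower. Dnajb1 stood at 15.04 CPM in HFD cells and 24.5 CPM in chow cells (ratio relative to the median gene, which was itself 0.18 higher in the HFD cells, of -0.88, -1.03 to -0.73), Ubb at 405 and 759 CPM (-1.09, -1.11 to -1.06), Hspe1 at 145 and 211 CPM (-0.72, -0.77 to -0.67), and Hspa8 at 216 and 275 CPM (-0.53, -0.57 to -0.48). Of 36 heat shock genes, 3 (Ubb, Dnajb1 and Hspe1) were at least 1.5-fold lower, a share near that of all genes, and 1, Hsf2, was higher at 0.73 (0.51 to 0.96). Intervals lay below 0 for 25 of the 36 and above 0 for 5, beside 3106 and 2326 of all 11766 genes. The heat shock list's median was -0.23. Other lists were lower still in the HFD library: the proteasome had a median of -0.75 with 18 of 28 genes at least 1.5-fold lower, the integrated stress response -0.68 with 10 of 18, and nuclear oxidative phosphorylation -0.59 with 21 of 42.

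Immediate early genes were compared between the same zero cells. Fos stood at 455 CPM in HFD zero cells and 232 CPM in chow zero cells (0.80, 0.76 to 0.83), Fosb at 42.8 and 16.9 CPM (1.17, 1.03 to 1.30) and Egr1 at 185 and 98.8 CPM (0.73). Of 23 immediate early genes, 5 were at least 1.5-fold higher in the HFD library (Fosb, Klf2, Fos, Egr1 and Klf6), beside 4.09% of all genes. None was lower, and the list median was 0.17. Klf2 had only 37 UMIs in HFD cells and 15 in chow cells. In chow members Fos and Dnajb1 were both higher than in chow zero cells, whereas HFD zero cells had more Fos and less Dnajb1 than chow zero cells, and both comparisons draw on chow zero cells. The zero gate left out 33.4% of chow beta cells but 4.39% of HFD beta cells. The chow groups left out had 291 to 614 CPM of Fos, against 231 CPM in all chow zero cells. Over all beta cells, not matched on depth, Fos stood at 454 CPM in the HFD library and 283 CPM in the chow library. The part of this unequal selection in the ratios was not tested.

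Hspa1a and Hspa1b were also found outside the beta cells. Cells were grouped by gates on hormone or marker genes, and each cell was thinned to 3800 UMIs so that shares could be compared between depths. In the chow library an Hspa1a or Hspa1b UMI was then found in 16.3% of beta cells (15.3 to 17.4%), 16.0% of Ppy-rich cells, 13.8% of Sst-rich cells and 8.86% (6.96 to 11.1%) of Gcg-rich cells. Median depths before thinning were 14809.5, 10165, 8088 and 8447 UMIs in the same order. Cells with endothelial markers had the highest share, 29.0% (22.6 to 36.1%) at a median depth of 7051 UMIs, and cells with macrophage markers had 19.7% (10.6 to 31.8%). No cell type here is known to lack these genes, so free RNA in the droplets cannot be measured from such a type; the Gcg-rich share is the lowest in the chow library.

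In the HFD library the endocrine shares were lower throughout: 1.61% of beta cells (1.20 to 2.12%), 2% of Ppy-rich cells, 2.88% of Sst-rich cells and 0.249% of Gcg-rich cells. Endothelial marker cells had 19.7% (13.4 to 27.4%) and macrophage marker cells 16.0% (8.83 to 25.9%), both overlapping with the chow intervals. Per UMI, Hspa1a and Hspa1b stood at 6.83 CPM in HFD beta cells and 79.5 CPM in chow beta cells, and at 87.9 CPM in HFD endothelial marker cells and 246 CPM in chow endothelial marker cells. In macrophage marker cells the order was the other way, 187 CPM in the HFD library and 122 CPM in the chow library, where 5 cells held 74.2% and 69.4% of the counts. The share of cells with at least 5 UMIs, not thinned, was 0.249% of HFD and 1.16% of chow Gcg-rich cells, 0.719% and 6.65% of Sst-rich cells, and 1% and 7.58% of Ppy-rich cells.

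**Figure D5:**
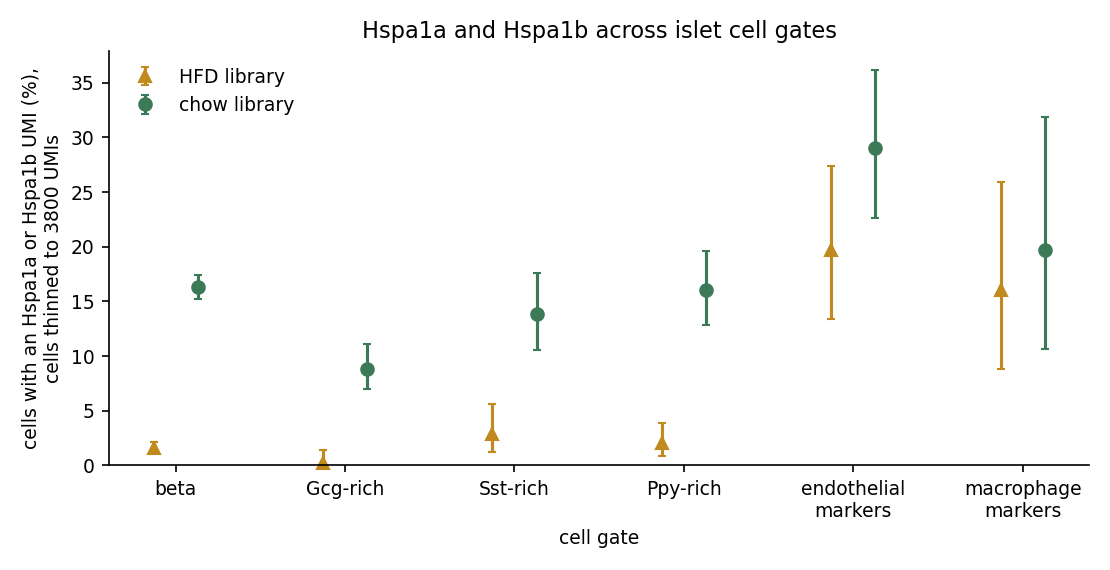
Share of cells with at least 1 Hspa1a or Hspa1b UMI after thinning to 3800 UMIs (y axis, percent) in 6 cell gates (x axis) of the HFD library (triangles) and the chow library (circles), with exact Clopper-Pearson 95% intervals. The intervals of the libraries are apart in the beta, Gcg-rich, Sst-rich and Ppy-rich gates and overlap in the endothelial and macrophage marker gates.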

How the data were processed

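The authors deposited 1 matrix of UMI counts per library, whole numbers by gene and barcode. Cell Ranger 2.1.0 is named in the submitters' processing notes, while the sources used here name neither the build nor the rule that kept barcodes as cells. Each diet has 1 library (89292222 UMIs in the chow library, 68544729 in the HFD library, at least 3846 UMIs per barcode). Doublets were not removed, since the selection does not; an alternative left out cells with at least 1% Gcg or 1% Sst UMIs, at least 3 UMIs of endothelial or macrophage markers, or over 40000 UMIs.

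UMI counts were added up within each group of cells and divided by the group's UMIs (CPM), with exact Poisson intervals. Zero cells were matched to members by the nearest UMI total without reuse. Ratios had 0.5 counts added, were centred on the median gene, and carry exact conditional binomial intervals; genes under a summed count of 50 were left out. Shares have exact Clopper-Pearson intervals. Calculations used Python 3.11.15, numpy 2.4.6, scipy 1.17.1 and pandas 2.3.3, with edgeR 4.0.16 only for TMM factors as an alternative scaling, and were tested on simulated data. Cells of 1 library are not replicates, so no p-values were computed. All intervals cover counting error only.

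The named genes were the 15 highest and 15 lowest ratios among genes with at least 20 CPM in 1 group and a summed count of at least 100, leaving out the selecting genes, predicted and mitochondrial genes and markers of other cell types, together with all members of the heat shock list, the 3 most abundant and the highest and lowest members of each other list, and cell type markers. Other list members were named after their values were seen. Values of 1 heat shock list gene are not reported here. The selection, the 17 lists and the alternatives were chosen with earlier results of these data known. Promoter windows came from RefSeq on GRCm38.p6 and were matched by symbol.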

Additional observations from a re-analysis of the deposited data

How the results depend on the processing

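The number of heat-shock-high chow cells was 732 with a gate of at least 3 UMIs, 114 with at least 10 and 196 with at least 4 UMIs per 10000, and the HFD number was 31 with at least 3 UMIs and 8 with at least 10; other limits on insulin, mitochondrial share and likely doublets gave 390 to 412 chow and 14 to 19 HFD cells. The count of genes at least 1.5-fold higher and lower was 525 and 383 without depth matching, 2110 and 2059 with no count minimum, 48 and 14 with a summed count of at least 200, and 33 and 21 at 2-fold, against 218 and 185. Of the 218 higher and 185 lower genes, those also past 1.5-fold numbered 147 and 117 with likely doublets left out, 88 and 89 when matched on UMIs other than insulin, 64 and 21 with at least 4 UMIs per 10000, 55 and 16 with at least 10 UMIs, and 31 and 3 with cells thinned to 3800 UMIs (3873 genes tested), so the set of genes past 1.5-fold, the lower one above all, depended on the setting. The heat shock list median stayed between 0.22 and 0.31 and the immediate early median between 0.59 and 0.82 over 10 alternatives each, and Dnajb1 between 1.69 and 2.45. In the HFD contrast the immediate early median was 0.77 with at least 2 UMIs (45 pairs). Without thinning, shares of cells with Hspa1a or Hspa1b in the HFD library were 4.39% in beta, 2.24% in Gcg-rich, 6.47% in Sst-rich, 4.00% in Ppy-rich, 29.9% in endothelial and 28.4% in macrophage marker cells, and in the chow library 33.4%, 13.7%, 18.4%, 23.4% and 37.6% in the first 5 of these. The cause of these shifts was not tested. No paired analysis was possible because each diet has 1 library. Depth limits low genes: Bag3, at 9.79 CPM, had an interval of -0.42 to 0.45, and smaller differences were not detectable.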

Other observations

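Cd74, an invariant chain gene of antigen-presenting cells, stood at 24.8 CPM in heat-shock-high chow cells and 1.92 CPM in matched zero cells, and the 5 highest cells held 90.3% of its counts in the heat-shock-high cells. Pdyn, which encodes prodynorphin, had a UMI in 144 of 429 heat-shock-high cells (33.6%) and 124 of 429 matched zero cells (28.9%). The metallothionein genes Mt1 and Mt2 together had a median of 10.2 UMIs per 10000 in heat-shock-high cells and 11.9 in matched zero cells.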
